A study of Mus musculus with 20 samples.

Results

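The genes described here are the 150 whose transcripts peaked in WT diplotene spermatocytes, out of 23235 genes in the deposited table. A gene was eligible with at least 5 FPKM (an expression level scaled by transcript length and library size) in both WT diplotene libraries. Genes whose symbols start with Mir, Snor, Scarna, Rpl, Rps, Hist, Zfp, 1700 or 49 were left out, and 5965 genes remained. Each was scored as log2 of its lower WT diplotene value plus 1, minus log2 of its highest value plus 1 in the WT pachytene and WT meiosis II libraries. A score above 0 means that both diplotene libraries lay above all 4 libraries of the stages before and after. The 150 highest scores were taken, so the members were chosen by their WT values, which are given below as a description with no test.

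The RNA came from testes of adult male C57BL/6 mice, whose spermatocytes had been separated by stage with FACS sorting. The labels name no treatment. There were 2 libraries of 500 cells each for pachytene, diplotene and meiosis II cells, in WT and in Cxxc1-null mice, 12 in all. Cxxc1 encodes a protein that binds CpG dinucleotides and belongs to the complexes that trimethylate histone H3 lysine-4. The sources used here do not give the way or the cells in which it was deleted. The Cxxc1 transcript itself had 11.7 to 17.6 FPKM in the 6 WT libraries, 8.29 to 9.57 FPKM in the 4 Cxxc1-null pachytene and diplotene libraries, and 3.10 and 2.02 FPKM in the Cxxc1-null meiosis II libraries. Every Cxxc1-null library lay below every WT library, but most of the transcript remained in pachytene and diplotene, so these levels do not show a loss of the gene product at those stages. The name Cxxc1-null is the labels'. Nothing in the labels ties the 2 libraries of a group to different animals. The p-values below therefore measure the spread between libraries, part or all of which may be technical.

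Pachytene is the long stage of the first meiotic prophase in which homologous chromosomes are held together by the synaptonemal complex and crossovers are completed. In diplotene the complex comes apart, the chromosomes stay joined at chiasmata, and transcription of the autosomes is high before the cell enters the division. The X and Y chromosomes are silenced in both stages. Many messages for the sperm flagellum, acrosome and energy supply are already made in late prophase and are translated later, in spermatids. The FPKM scale shows a peak as a share of all transcripts of the cell. In bulk libraries, fewer cells that express a gene and less RNA per cell cannot be told apart.

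The sorted diplotene cells had lower levels of synaptonemal complex transcripts than the pachytene cells: Sycp1, which encodes the transverse filament, had 580 and 294 FPKM in WT pachytene and 63.3 and 71.1 FPKM in WT diplotene. The meiotic cyclin gene Ccna1 had 43.1 and 54.9 FPKM in WT pachytene and 162 and 120.5 FPKM in WT diplotene. The summed FPKM of 19 Sertoli markers was 16.5 to 32.3 in the 4 diplotene libraries, against 84.7 to 149 in pachytene and 568 to 830 in meiosis II. The 23 peritubular, endothelial and blood markers summed to 4.41 to 7.51 FPKM in diplotene, 8.48 to 20.8 in pachytene and 10.3 to 54.0 in meiosis II. The 11 Leydig markers summed to 46.2 and 74.3 FPKM in WT and 18.7 and 25.2 FPKM in Cxxc1-null diplotene, with 10.1 to 65.6 FPKM of it from Insl3. In pachytene that sum was 19.4 and 42.5 FPKM in WT and 47.2 and 70.1 FPKM in Cxxc1-null, so from pachytene to diplotene it moved up in WT, with the members, and down in Cxxc1-null. In meiosis II the Leydig sum was 55.8 and 303 FPKM in WT and 129 and 208 FPKM in Cxxc1-null. The 28 genes of a stress response to sorting also moved with the members against pachytene. They summed to 409 and 566 FPKM in WT pachytene and 616 and 708 in WT diplotene, and to 485 and 554, then 736 and 808 FPKM in Cxxc1-null, with 614 to 782 FPKM in meiosis II. In diplotene 10 of the 19 Sertoli markers and 7 of the 11 Leydig markers stayed under 1 FPKM, as did 20 of the 23 others. Of defining markers, Sox9, Amh and Ptprc reached at most 0.0542, 0.144 and 0.125 FPKM there. The 39 round spermatid markers summed to 7412 to 10139 FPKM in diplotene, 8838 to 13730 FPKM in pachytene and 12283 to 22884 FPKM in meiosis II. Cxxc1-null diplotene replicate 2 had 70.0 FPKM of the spermatid acrosomal gene Acrv1, where the other 3 diplotene libraries had 10.4 to 19.6. Prm1, in the same list, had 1020 and 830 FPKM in WT pachytene, 128 and 305 in diplotene and 2213 and 3794 in meiosis II. In Cxxc1-null it had 909 and 577, then 29.5 and 185, then 337 and 999.5 FPKM. Tnp1 was also lowest in diplotene in both genotypes, while the Cxxc1-null diplotene and pachytene values of Acrv1 and Tssk1 overlapped. The part of these genes and cells in the results below was not tested. None of the 150 members is in any of these marker lists except Pou5f2, which is in the spermatocyte list.

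Promoters of 4 members are shown here because these genes were called higher in diplotene than in both other stages of the Cxxc1-null libraries while their CpG content spans a wide range, and the Cxxc1 protein binds CpG. Each is the 250 bases before the RefSeq start in build GRCm38.p6, 5′ to 3′ on the gene's strand, with every CpG in capitals. The windows are chr2:131174811-131175060 on the minus strand for Spef1 (4 CpG), chr13:78024652-78024901 on the plus strand for Pou5f2 (9 CpG), chr7:126428517-126428766 on the plus strand for Rabep2 (18 CpG) and chr13:48870886-48871135 on the minus strand for Phf2 (50 CpG).
Spef1: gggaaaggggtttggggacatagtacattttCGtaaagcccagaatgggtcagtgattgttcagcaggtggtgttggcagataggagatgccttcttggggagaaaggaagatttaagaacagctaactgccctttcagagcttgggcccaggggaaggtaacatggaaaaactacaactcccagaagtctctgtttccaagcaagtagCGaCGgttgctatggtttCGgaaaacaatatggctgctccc
Pou5f2: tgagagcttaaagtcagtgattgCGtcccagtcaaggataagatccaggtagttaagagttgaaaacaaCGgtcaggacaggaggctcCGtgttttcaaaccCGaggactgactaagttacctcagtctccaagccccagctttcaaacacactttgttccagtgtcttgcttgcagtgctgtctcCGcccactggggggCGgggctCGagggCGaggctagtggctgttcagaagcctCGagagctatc
Rabep2: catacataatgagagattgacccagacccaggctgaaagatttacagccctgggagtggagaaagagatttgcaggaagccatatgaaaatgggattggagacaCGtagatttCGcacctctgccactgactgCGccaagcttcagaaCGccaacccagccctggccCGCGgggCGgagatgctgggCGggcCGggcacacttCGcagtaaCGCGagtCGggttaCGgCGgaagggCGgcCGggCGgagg
Phf2: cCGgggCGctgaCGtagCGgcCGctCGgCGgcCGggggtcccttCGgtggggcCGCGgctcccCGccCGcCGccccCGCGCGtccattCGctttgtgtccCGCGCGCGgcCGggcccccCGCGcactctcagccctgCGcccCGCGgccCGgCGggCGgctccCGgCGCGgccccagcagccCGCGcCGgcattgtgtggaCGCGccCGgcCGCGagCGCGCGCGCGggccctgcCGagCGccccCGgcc

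The promoter table held 150 start sites for 113 of the 150 members, and 6070 for 4829 of the 5965 eligible genes. In the window from 250 bases before to 50 after the start, the members had a median of 19.5 CpG and a G+C content of 59.7%, and the eligible genes a median of 22 CpG and 60.7%. All 32851 promoters of the table had a median of 7 CpG. At least 10 CpG were found in 82.0% of member promoters, 84.3% of eligible promoters and 43.5% of all promoters. The members thus had promoters close in CpG to those of other genes expressed in diplotene. Across the 113 members, Spearman's rho of promoter CpG (250 bases before the start, median over starts) with the diplotene score in Cxxc1-null was 0.064, and with the Cxxc1-null minus WT difference it was -0.049 in diplotene and -0.192 in meiosis II. These values describe genes measured in the same libraries, and no relation is read from them. Short motifs were searched on both strands of the same 300 base window. The CCAAT box (CCAAT) was in 45.3% of member and 39.2% of eligible promoters, and a MYB-type motif (CAACTG) in 16.0% and 10.8%. Shares were 61.3% and 61.9% for the GC box (GGGCGG), 18.7% and 22.9% for an ETS-type motif (CCGGAAG), and 10% and 14.1% for an RFX-type motif (GTTGCC). The full cyclic AMP response element (TGACGTCA) was in 3.33% and 3.53%, its shorter form (TGACG), which the full element contains, in 31.3% and 34.4%, and the E-box (CACGTG) in 6.00% and 11.1%. The TATA box (TATAAA) was in 7.33% and 6.99%, the octamer (ATTTGCAT) in 1.33% and 0.890%, and an NRF1 core (GCATGCGC) in 7.33% and 6.71%. Over all promoters of the table, the CCAAT box was in 37.4%, the MYB-type motif in 13.7% and the GC box in 35.7%, followed by 20.8% for the shorter and 1.79% for the full response element, 12.5% for the RFX-type motif, 13.6% for the TATA box, 7.15% for the E-box, 8.86% for the ETS-type motif, 1.74% for the octamer and 2.71% for the NRF1 core. A match is a string of letters in this window and not a bound site.

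None of the 150 members lies on the X or Y chromosome by the RefSeq table of GRCm38.p6. The minimum of the rule already left few sex-linked genes, with 5 of the 5925 placed eligible genes on the X, against 407 of 12859 placed genes among all those tested. The members were spread over all 19 autosomes, with 2 to 15 on each. The table gives 142 of them as protein-coding. There were 6 pairs of members within 50000 bases of each other, namely Prss43 and Prss44, Cyb561d2 and Zmynd10, Nubp2 and Nme3, Ttll1 and Mcat, Ankrd11 and Spg7, and Fuca1 and 1110049F12Rik. The libraries are not described as stranded, so reads of overlapping neighbours cannot be told apart.

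In WT the peak was modest for most members. The median score was 0.44, and the scores ran from 1.89 for Pou5f2 and 1.00 for Vamp5, the second, down to 0.326. The mean level in WT diplotene ran from 5.88 to 3506 FPKM with a median of 35.2, and 50 members were under 20 FPKM. The median ratio of the WT diplotene mean was 1.93 to the WT pachytene mean and 1.75 to the WT meiosis II mean. The limit of the list falls in a dense range. The last members were Phf10, Emid1, Dap, Nt5m and Gmppa with scores of 0.338 to 0.326, and the first genes outside were C2cd4b, Pef1, Rnf187, Sae1 and Pafah2 with 0.325 to 0.319. WT pachytene replicate 2 was the highest of the 4 pachytene and meiosis II libraries for 70 of the 150 members, and 128 had more FPKM in it than in replicate 1 (59.8% of eligible genes did). Without that library the rule kept 55 of the 150 members. It kept 73 and 74 of them without WT diplotene replicate 1 and 2, and 92 when means replaced the minimum and maximum.

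The diplotene peak was also present in the Cxxc1-null libraries, which the rule had not used. Both Cxxc1-null diplotene libraries lay above all 4 Cxxc1-null pachytene and meiosis II libraries for 128 of the 150 members, or 85.3%. The same held for 17.6% of all eligible genes and for 11.4% of all 12956 genes tested. Among the 543 genes outside the list that also scored above 0 in WT, 349 (64.3%) did so in Cxxc1-null. Within the list the count was 47 of the first 50 members, 44 of the next 50 and 37 of the last 50. The median score in Cxxc1-null was 0.34 over the members and -0.52 over the eligible genes. With the 150 genes that the rule takes when WT pachytene replicate 2 is left aside, an alternative chosen after seeing the data, the count was 143.

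**Figure D1:**
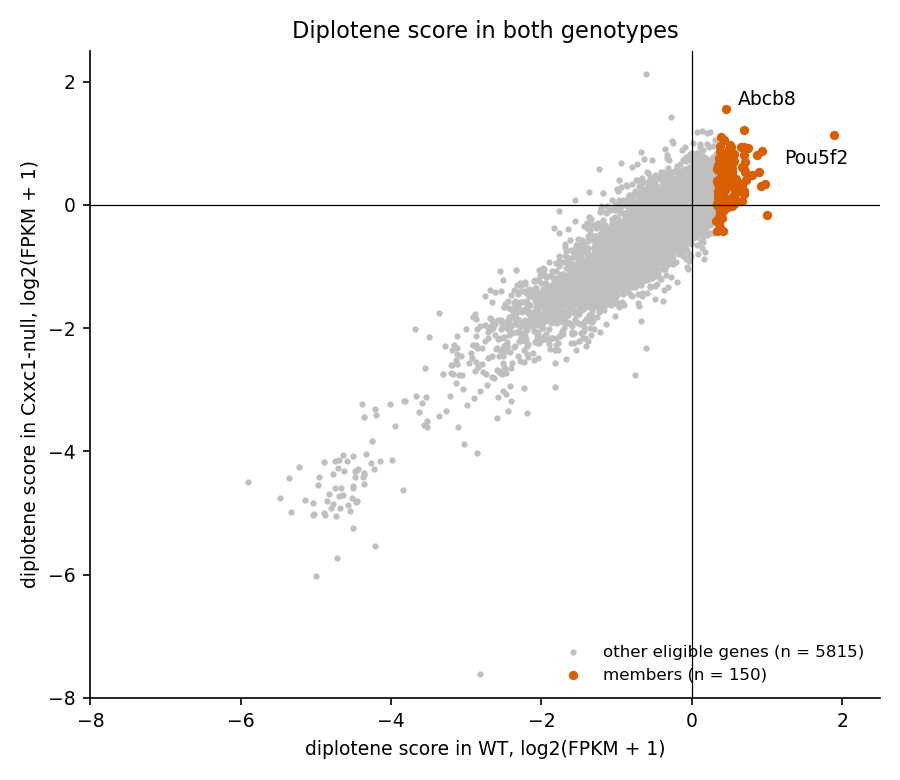
The diplotene score of each eligible gene in WT (x axis) and Cxxc1-null (y axis), as a difference of log2(FPKM + 1) between the lower diplotene library and the highest library of pachytene and meiosis II, with the 150 members in orange and the other eligible genes in grey. The members lie to the right because their WT scores chose them, and 128 of them lie above 0 on the y axis, with Pou5f2 at 1.14 and Abcb8, the highest member, at 1.55.

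Because the WT scores chose the list, the step from a median of 0.44 in WT to 0.34 in Cxxc1-null is not read as a weaker peak. Choosing on the Cxxc1-null libraries gave a step in the other direction. The 150 genes with the highest scores in Cxxc1-null had a median score of 0.72 there and 0.17 in WT, where 113 of them were above 0. The lists from the WT and from the Cxxc1-null libraries shared 44 genes, 29.3% of each. The shared genes included Pou5f2, Cdh2, Spef1, Lef1, Mbd3, Top3a, Abcb8 and Rnf166.

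**Figure D2:**
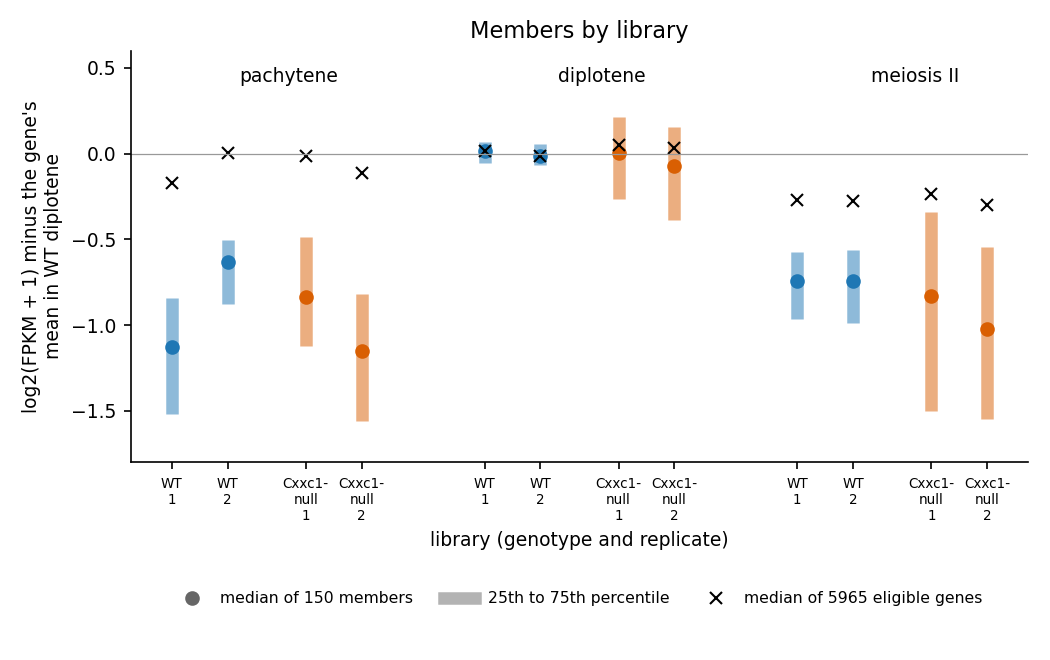
log2(FPKM + 1) of the 150 members in each of the 12 libraries, relative to each gene's mean in WT diplotene, with the median (points), the 25th to 75th percentile (bars) and the median of all 5965 eligible genes (crosses). The member medians lie at 0.01 and -0.01 in WT diplotene and at 0.00 and -0.07 in Cxxc1-null diplotene, and between -1.15 and -0.63 in every pachytene and meiosis II library.

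By library, the median member in WT pachytene lay 1.13 and 0.63 below its WT diplotene mean on the log2(FPKM + 1) scale (values of -1.13 and -0.63), and in Cxxc1-null pachytene the values were -0.83 and -1.15. In meiosis II the medians were -0.74 and -0.75 in WT and -0.83 and -1.02 in Cxxc1-null. The spread between members was wider in Cxxc1-null meiosis II, where the 25th and 75th percentiles of replicate 1 were -1.50 and -0.34, than in WT meiosis II replicate 1, where they were -0.97 and -0.58. The rule sets a ceiling on the WT values, so this spread is a description.

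The stage differences were tested within the 6 Cxxc1-null libraries alone, over 12956 genes. All 150 members were tested, since each passed the filter through its WT diplotene level. Of them 93 were higher in Cxxc1-null diplotene than in Cxxc1-null pachytene and 0 were lower (limma, Benjamini-Hochberg adjusted p under 0.05). Of all genes tested 12.3% were called higher and 17% lower, and of eligible genes 20.1% and 14.1%. Against Cxxc1-null meiosis II 84 members were higher in diplotene and 0 were lower, where 18.9% and 25.1% of all genes and 28.6% and 8.26% of eligible genes were called. Counted at an unadjusted p under 0.05, 115 members were higher than in pachytene and 104 higher than in meiosis II. The estimated difference was positive against pachytene for 148 members, against meiosis II for 148, and against both for 146. Shares over all genes were not counted at the unadjusted limit or for the sign, so no excess is read from these counts. The medians were 0.90 and 0.87 for the members, -0.09 and 0.01 for all genes tested, and 0.11 and 0.28 for eligible genes.

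A peak over both neighbouring stages passed the test for 55 members, 36.7% of the list, against 1.91% of all genes tested and 3% of eligible genes. A further 38 passed against pachytene alone, 29 against meiosis II alone and 28 against neither. These counts fell when any Cxxc1-null library was left out, though not evenly. Those that use pachytene were lowest without Cxxc1-null pachytene replicate 2. In Cxxc1-null pachytene, 129 members had more FPKM in replicate 1 than in replicate 2 (61.5% of eligible genes did). The count of 93 was 56 without Cxxc1-null pachytene replicate 1, 0 without pachytene replicate 2, 9 and 11 without diplotene replicate 1 and 2, and 40 with no filter on low values. The count of 84 was 43 and 54 without diplotene replicate 1 and 2 and 45 without meiosis II replicate 2. The count of 55 was 33 and 0 without pachytene replicate 1 and 2, 3 and 6 without diplotene replicate 1 and 2, 21 without meiosis II replicate 2, and 25 with no filter. Without any 1 of the 6 libraries, between 142 and 146 members had a positive estimate in both contrasts. These refits share most of their libraries, and the sign was not counted over all genes, so nothing on stability is read from it. Quantile normalization moved the counts of 93, 84 and 55 up, to 98, 98 and 66.

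**Figure D3:**
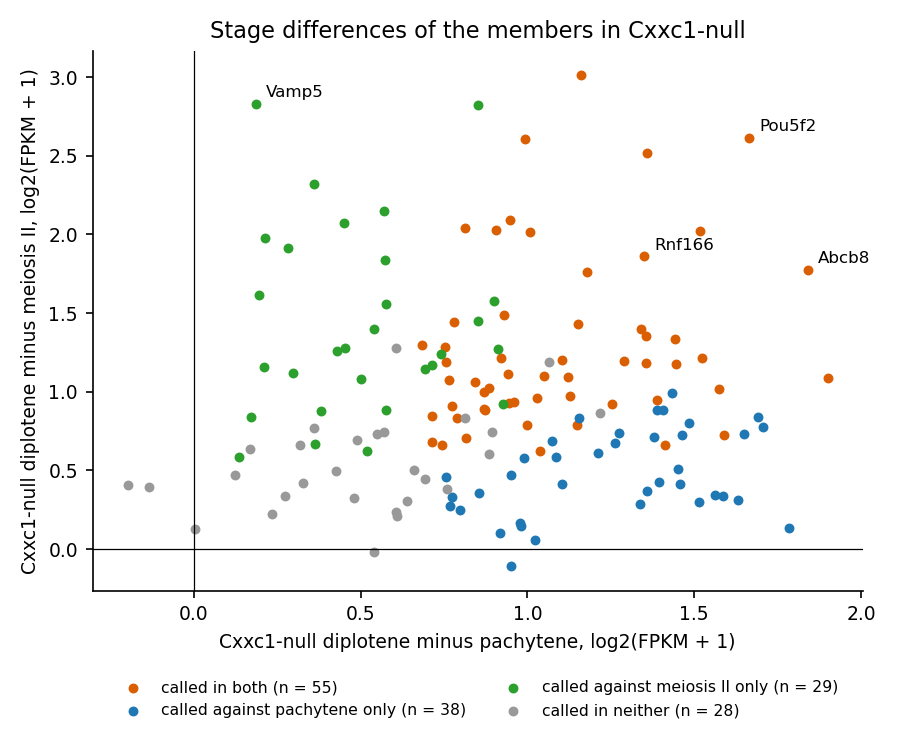
Cxxc1-null diplotene minus pachytene (x axis) and minus meiosis II (y axis) for each of the 150 members, as limma estimates on the log2(FPKM + 1) scale, coloured by which contrast passed at an adjusted p under 0.05. Nearly all points lie right of and above 0, and the 55 members called in both contrasts include Pou5f2, Abcb8 and Rnf166.

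Of the genes for transcription factors, chromatin proteins and nuclear architecture (17 members by textbook roles of their symbols, assigned after the list was known, 1 of them a pseudogene), 14 kept both Cxxc1-null diplotene libraries on top, 9 passed against pachytene and 11 against meiosis II, 7 of them in both. Over all 150 members 128 kept both on top, 93 passed against pachytene, 84 against meiosis II and 55 in both. The shares of eligible genes were 17.6%, 20.1%, 28.6% and 3%, and of all genes tested 11.4%, 12.3%, 18.9% and 1.91%. The role groups, here and below, were not tested against these shares, so no difference between roles is read. Pou5f2, a germ-cell POU-domain transcription factor gene, stood first. It had 48.5 and 56.4 FPKM in WT pachytene, 230.2 and 211 in WT diplotene and 40.7 and 30.8 in WT meiosis II. In the Cxxc1-null libraries it had 50.3 and 28.3, then 133 and 112, then 20.8 and 17.4 FPKM. The stage groups did not overlap in either genotype, and both Cxxc1-null diplotene libraries lay below both WT ones, at 55.4% of the WT mean. High WT diplotene values chose the members, so here and for the genes below a level relative to WT is a description, from which no loss is read. Within Cxxc1-null, diplotene exceeded pachytene by 1.66 ± 0.30 (standard error throughout, log2 scale, limma adjusted p = 0.013) and meiosis II by 2.61 ± 0.30 (limma adjusted p = 0.0017).

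Lef1, a transcription factor of the Wnt pathway, rose most from pachytene to diplotene of all members in Cxxc1-null. It had 18.5 and 12.4 FPKM in Cxxc1-null pachytene, 59.3 and 59.6 in diplotene and 33.2 and 22.7 in meiosis II, and its difference from pachytene was 1.90 ± 0.27 (limma adjusted p = 0.0092). The WT libraries had 13.2 and 30.7, then 64.1 and 78.6, then 42.2 and 43.1 FPKM, so the order of stages was the same in both genotypes. Mbd3, a subunit gene of the NuRD deacetylase complex, had 51.3 and 38.4, then 118 and 127, then 52.8 and 54.6 FPKM in Cxxc1-null. Its differences were 1.44 ± 0.20 from pachytene and 1.18 ± 0.20 from meiosis II (limma adjusted p = 0.0091 and 0.0053). Phf2, which encodes a PHD-finger and Jumonji-domain demethylase of histone H3, had 6.45 and 8.77, then 14.9 and 20.6, then 7.31 and 5.22 FPKM in WT. In Cxxc1-null it had 4.08 and 6.08, then 9.19 and 13.3, then 1.73 and 2.24 FPKM, so diplotene was again above both neighbours (1.01 ± 0.28 and 2.02 ± 0.28, limma adjusted p = 0.040 and 0.0028). The transcriptional repressor gene Gfi1 passed in both contrasts too (0.95 ± 0.26 and 2.09 ± 0.26).

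Kat5, the TIP60 histone acetyltransferase gene, was higher than in Cxxc1-null pachytene (1.45 ± 0.25, limma adjusted p = 0.012), with 30.5 and 20.3 FPKM there and 68.1 and 71.3 in diplotene. Its meiosis II values of 54.4 and 43.4 FPKM lay below both diplotene values, and that difference did not pass (0.51 ± 0.25, limma adjusted p = 0.14). Atxn7l3b, a small paralog of a deubiquitinase subunit gene, is among the 10 most abundant members, with 453 and 531 FPKM in WT and 311 and 369 in Cxxc1-null diplotene. H2afy3, which RefSeq lists as a transcribed pseudogene of the macroH2A histone family, had 27.4 and 32.9 FPKM in WT and 13.6 and 17.2 in Cxxc1-null diplotene, 51.1% of the WT mean. Its Cxxc1-null difference passed against meiosis II (1.27 ± 0.35, limma adjusted p = 0.027) and not against pachytene (0.91 ± 0.35, limma adjusted p = 0.095).

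In 3 genes of this group a Cxxc1-null diplotene library overlapped another stage, although the estimates of Sfmbt2 and Hjurp were positive in both contrasts. Sfmbt2, a Polycomb-related gene, had 26.2 and 36.0 FPKM in Cxxc1-null pachytene and 32.4 and 37.2 in diplotene, so the groups overlapped. Hjurp, which encodes the chaperone that loads the centromeric histone CENP-A, had 7.996 and 7.69 FPKM in Cxxc1-null pachytene and 6.81 and 10.8 in diplotene, against 14.6 and 15.9 in WT diplotene. The nuclear lamina gene Lmna had 11.7 and 13.1 FPKM in Cxxc1-null diplotene and 12.6 and 12.5 in meiosis II. Phf10, a subunit gene of a SWI/SNF remodelling complex and the first of the last 5 members, had 182 and 166 FPKM in Cxxc1-null diplotene and 165 and 151 in pachytene, and passed only against meiosis II (0.59 ± 0.18, limma adjusted p = 0.037).

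All 3 genome maintenance genes kept both Cxxc1-null diplotene libraries on top. Top3a, the topoisomerase that works with the BLM helicase to take apart joined DNA molecules, had 2.80 and 6.51 FPKM in WT pachytene, 10.4 and 10.7 in diplotene and 7.42 and 6.57 in meiosis II. In Cxxc1-null it had 4.71 and 4.49, then 10.8 and 12.6, then 3.32 and 2.21 FPKM, and both differences passed (1.18 ± 0.24 and 1.76 ± 0.24, limma adjusted p = 0.017 and 0.0025). Ndnl2, a subunit gene of the SMC5/6 complex, passed in both contrasts as well (0.92 ± 0.25 and 1.21 ± 0.25). Obfc1, of the CST complex at telomeres, had 23.6 and 18.1 FPKM in Cxxc1-null diplotene and passed in neither (1.06 ± 0.40 and 1.19 ± 0.40, limma adjusted p = 0.089 and 0.052).

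Genes of the cilium, centrosome and flagellum made up 10 members. All 10 kept both Cxxc1-null diplotene libraries on top, as did 128 of all 150 members. Of the 10 cilium, centrosome and flagellum genes 6 passed against pachytene and 4 against meiosis II, 3 of them in both. Rsph1, which encodes a radial spoke head protein of motile axonemes, was the most abundant member. It had 2571 and 2536 FPKM in WT pachytene, 3515 and 3498 in diplotene and 1906 and 2033 in meiosis II. In Cxxc1-null it had 2660 and 1797, then 3141 and 3258, then 1818 and 2049 FPKM. The diplotene libraries were the highest in both genotypes, but neither Cxxc1-null difference passed (0.55 ± 0.25 and 0.73 ± 0.25, limma adjusted p = 0.14 and 0.055). Zmynd10, needed to assemble axonemal dynein arms, had 276 and 244 FPKM in Cxxc1-null diplotene against 135 and 72.2 in pachytene (1.39 ± 0.31, limma adjusted p = 0.022) and 154 and 128 in meiosis II (0.88 ± 0.31, limma adjusted p = 0.058).

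Spef1, which encodes a microtubule-binding protein of the flagellum, had 16.6 and 26.1, then 48.5 and 53.9, then 29.4 and 28.1 FPKM in WT. In Cxxc1-null it had 16.5 and 11.6, then 33.7 and 34.97, then 20.4 and 15.2 FPKM. Diplotene was the top stage in both genotypes, with 67.0% of the WT level in Cxxc1-null, and both Cxxc1-null differences passed (1.25 ± 0.25 and 0.92 ± 0.25, limma adjusted p = 0.016 and 0.025). The kinase gene Cdk20 and the intraflagellar transport gene Ift46 passed in both contrasts. Ninl, a centrosomal ninein-like gene, passed in neither (0.57 ± 0.26 and 0.74 ± 0.26). A list of 80 cilium and flagellum genes was set out for comparison. Of these symbols 52 were in the deposited table and 47 were eligible, and the list holds 2 members, Rsph1 and Spef1. Of its 51 tested genes 22 were higher and 1 was lower in Cxxc1-null diplotene than in pachytene. Against meiosis II 5 were higher and 10 lower, and 3 were higher than both stages. The shares of all genes tested were 12.3% and 17%, then 18.9% and 25.1%, and 1.91% for both.

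**Figure D4:**
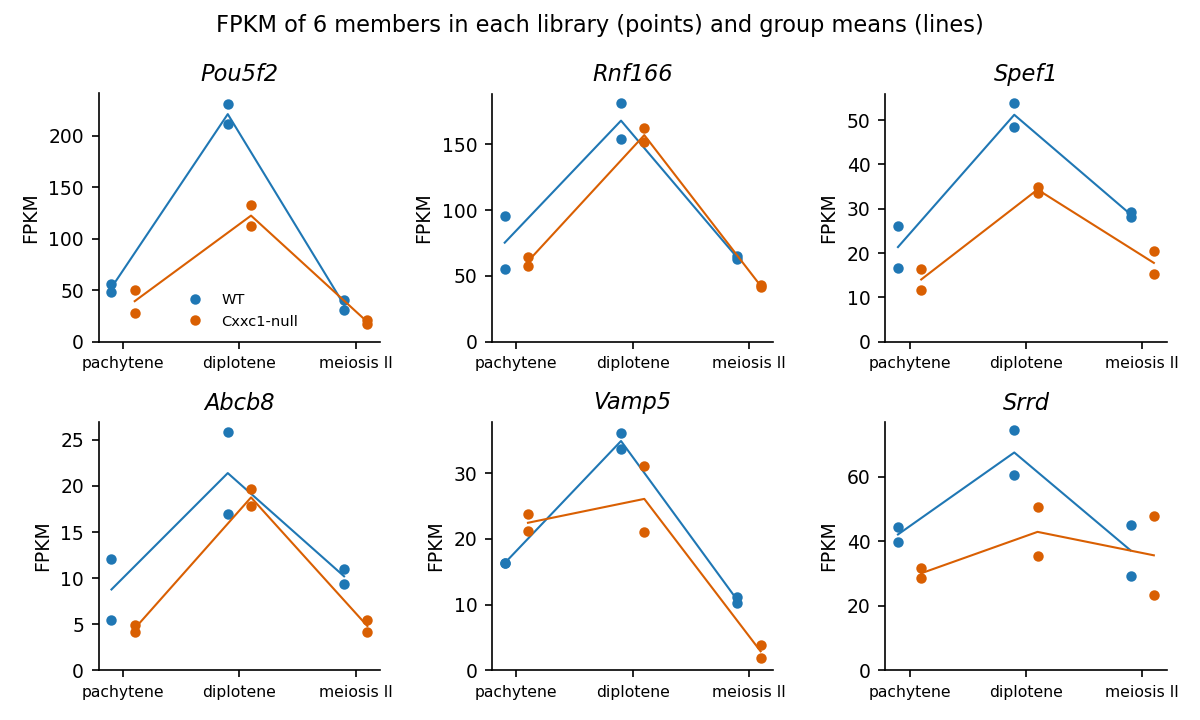
FPKM of 6 members in pachytene, diplotene and meiosis II, with 1 point per library and lines through the group means, in WT (blue) and Cxxc1-null (orange). Pou5f2, Rnf166, Spef1 and Abcb8 have both diplotene libraries on top in both genotypes, while the Cxxc1-null diplotene points of Vamp5 overlap those of pachytene and those of Srrd overlap meiosis II.

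All 12 mitochondrial members kept both Cxxc1-null diplotene libraries on top, as did 128 of all 150 members. Of the 12, 9 passed against pachytene and 9 against meiosis II, 8 of them in both. Abcb8, an inner membrane ABC transporter gene, had the highest score of all members in Cxxc1-null (1.55). It had 4.88 and 4.16 FPKM in Cxxc1-null pachytene, 17.8 and 19.7 in diplotene and 5.41 and 4.17 in meiosis II, with differences of 1.84 ± 0.22 and 1.78 ± 0.22 (limma adjusted p = 0.0077 and 0.0021). The WT libraries had 5.41 and 12.1, then 16.9 and 25.9, then 11.0 and 9.40 FPKM, with more spread within groups. Spg7, a subunit gene of the inner membrane AAA protease, had 47.4 and 49.3 FPKM in Cxxc1-null diplotene against 30.3 and 22.4 in pachytene and 25.7 and 25.5 in meiosis II. The mitochondrial deacetylase gene Sirt3 passed in both contrasts (0.74 ± 0.21 and 0.66 ± 0.21), as did the mitochondrial translation factor gene Mtif3 (0.87 ± 0.23 and 0.88 ± 0.23) and the nucleotidase gene Nt5m, rank 149 of the list (0.75 ± 0.18 and 1.28 ± 0.18). The oxoglutarate carrier gene Slc25a11 passed in neither, with 30.2 and 29.9 FPKM in Cxxc1-null diplotene against 24.98 and 23.3 in meiosis II.

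Of 10 members in ubiquitin and related pathways 7 kept both Cxxc1-null diplotene libraries on top, and 5 passed in each contrast, 3 of them in both. Rnf166, a RING finger ubiquitin ligase gene, had 55.1 and 95.4, then 154 and 182, then 64.8 and 62.8 FPKM in WT. The Cxxc1-null values were 64.6 and 57.5, then 152 and 162, then 43.2 and 41.8 FPKM. Diplotene was separate from both other stages in each genotype, and the Cxxc1-null differences were 1.35 ± 0.17 and 1.86 ± 0.17 (limma adjusted p = 0.0083 and 0.0013). Rnf144b passed in both contrasts (0.68 ± 0.20 and 1.29 ± 0.20), as did Gps1, a COP9 signalosome subunit gene (1.00 ± 0.25 and 0.79 ± 0.25). Park2, the parkin gene, passed in neither (0.89 ± 0.30 and 0.60 ± 0.30), and its Cxxc1-null diplotene values were 23.0 and 15.7 FPKM against 15.0 and 9.86 in meiosis II. Ubac1, Smurf2 and March2 had a Cxxc1-null meiosis II library above a diplotene one. Anapc7, a subunit gene of the anaphase-promoting complex, had 20.9 and 15.5 FPKM in Cxxc1-null diplotene against 12.4 and 12.7 in WT, and passed against pachytene (1.16 ± 0.29, limma adjusted p = 0.028).

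The secretory pathway and vesicle group had 13 members, of which 11 kept both Cxxc1-null diplotene libraries on top, 8 passed against pachytene and 8 against meiosis II, and 5 in both. Rabep2, a rabaptin gene of endosome fusion, had 3.76 and 2.32 FPKM in Cxxc1-null pachytene, 9.11 and 8.34 in diplotene and 3.90 and 2.67 in meiosis II (1.29 ± 0.27 and 1.20 ± 0.27, limma adjusted p = 0.018 and 0.013). The Golgi GTPase-activating protein gene Arfgap2 had 22.8 and 15.9, then 54.2 and 46.6, then 23.8 and 19.5 FPKM (1.36 ± 0.24 and 1.19 ± 0.24). Both genes held 98% of their WT diplotene level (98.4% and 98.3%). Vamp5, a SNARE family gene, differed. In WT it had 16.3 and 16.4 FPKM in pachytene, 33.7 and 36.1 in diplotene and 11.1 and 10.2 in meiosis II. The Cxxc1-null libraries had 23.8 and 21.1, then 21.1 and 31.1, then 1.88 and 3.87 FPKM. The Cxxc1-null pachytene and diplotene values overlapped (0.19 ± 0.32, limma adjusted p = 0.69), while the difference from meiosis II passed (2.83 ± 0.32, limma adjusted p = 0.0017). Gpr108, a Golgi membrane protein gene, passed against pachytene (1.65 ± 0.33), and Grtp1, a TBC-domain gene with 290 and 293 FPKM in Cxxc1-null diplotene, passed against meiosis II (0.67 ± 0.18).

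In signalling and cytoskeleton genes 14 of 15 kept both Cxxc1-null diplotene libraries on top, 9 passed against pachytene and 13 against meiosis II, and 7 in both. Lat2, an adaptor gene of immune receptor signalling, had 6.44 and 3.91, then 13.3 and 15.8, then 1.92 and 1.51 FPKM in Cxxc1-null (1.36 ± 0.27 and 2.52 ± 0.27, limma adjusted p = 0.017 and 0.0015). Numb, an endocytic adaptor that limits Notch signalling, passed in both contrasts (1.52 ± 0.39 and 1.22 ± 0.39). Smad1, a transducer of BMP signals, had 26.9 and 31.6 FPKM in WT diplotene against 13.1 and 15.1 in Cxxc1-null diplotene. Its Cxxc1-null pachytene values of 11.2 and 12.8 FPKM were just below, and only meiosis II, at 2.45 and 3.26 FPKM, passed (1.98 ± 0.22, limma adjusted p = 0.0017). Dapk3, a serine/threonine kinase gene, went the other way, with 3.52 and 1.86, then 11.5 and 11.3, then 10.5 and 10.1 FPKM in Cxxc1-null. It passed against pachytene (1.78 ± 0.27, limma adjusted p = 0.0097), and its difference from meiosis II was 0.13 ± 0.27. Cdc42ep3, an effector of the GTPase Cdc42, is among the 10 most abundant members, with 364 and 374 FPKM in Cxxc1-null diplotene and 85.8 and 88.1 in meiosis II (2.07 ± 0.17, limma adjusted p = 0.0010). The phosphodiesterase gene Pde10a passed against meiosis II alone (1.58 ± 0.37). Pik3r6, a regulatory subunit gene of PI3-kinase gamma, kept its peak at a low level, with 2.48 and 2.77 FPKM in Cxxc1-null diplotene and 6.37 and 7.67 in WT.

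Of 13 metabolic genes 11 kept both Cxxc1-null diplotene libraries on top, 11 passed against pachytene and 4 against meiosis II, all 4 of them in both. Slc2a3, the neuronal and testicular glucose transporter gene, had 345 and 478, then 626 and 692, then 333 and 284 FPKM in WT. In Cxxc1-null it had 298 and 323, then 539 and 528, then 231 and 165 FPKM, and both differences passed (0.78 ± 0.22 and 1.44 ± 0.22, limma adjusted p = 0.039 and 0.0034). Pfkfb4, the testis form of an enzyme that controls the pace of glycolysis, passed in both contrasts (1.10 ± 0.27 and 1.20 ± 0.27), with 9.82 and 8.79 FPKM in Cxxc1-null diplotene and 14.8 and 15.2 in WT. Nubp2, an iron-sulfur cluster assembly gene, had 532 and 488 FPKM in Cxxc1-null diplotene and passed in both (1.12 ± 0.22 and 1.10 ± 0.22). Isyna1, which makes inositol phosphate from glucose phosphate, had 251 and 242 FPKM in Cxxc1-null diplotene against 103 and 66.2 in pachytene (1.56 ± 0.27) and 225 and 167 in meiosis II (0.35 ± 0.27, limma adjusted p = 0.34). Gmppa, a GDP-mannose pathway gene and the last member of the list, had 29.1 and 30.8 FPKM in Cxxc1-null diplotene and 34.99 and 29.97 in meiosis II.

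Among 11 genes for surface proteins, matrix and channels 9 kept both Cxxc1-null diplotene libraries on top, 8 passed against pachytene, 4 against meiosis II and 2 in both. Cdh2, the N-cadherin gene, had 9.59 and 14.8, then 39.6 and 34.0, then 18.0 and 18.2 FPKM in WT. In Cxxc1-null it had 13.5 and 10.9, then 41.96 and 24.8, then 13.8 and 9.78 FPKM (1.34 ± 0.31 and 1.40 ± 0.31, limma adjusted p = 0.024 and 0.013). The diplotene range was wide, and its lower library still lay above every other Cxxc1-null library. Gfra4, a co-receptor gene for a GDNF family ligand, had 30.9 and 30.5 FPKM in Cxxc1-null diplotene against 12.8 and 7.07 in pachytene (1.59 ± 0.28, limma adjusted p = 0.013) and 24.4 and 23.8 in meiosis II (0.34 ± 0.28). The NMDA receptor subunit gene Grin2d passed against pachytene alone (1.10 ± 0.25). Fbn2, the fibrillin-2 gene of the extracellular matrix, had 10.4 and 12.1 FPKM in WT and 5.59 and 7.23 in Cxxc1-null diplotene, with 4.63 and 5.53 in Cxxc1-null pachytene. Kcnmb4, a regulatory subunit gene of a potassium channel, had 91.3 FPKM in each WT diplotene library and 43.5 and 52.1 in Cxxc1-null, where meiosis II reached 44.0. Emid1, near the limit of the list, passed against pachytene (0.98 ± 0.26) and had 12.5 and 13.3 FPKM in Cxxc1-null diplotene against 10.4 and 12.4 in meiosis II.

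The testis serine protease genes Prss43 and Prss44 are neighbours and paralogs, so reads may be shared between them. Prss43 had 24.2 and 30.4, then 75.1 and 67.7, then 47.1 and 38.9 FPKM in WT, and 27.8 and 13.4, then 58.9 and 49.5, then 28.1 and 25.2 in Cxxc1-null. Prss44 had 31.7 and 29.1, then 48.8 and 42.8, then 13.5 and 10.7 FPKM in Cxxc1-null. Both genes kept diplotene on top, and each passed in 1 contrast, Prss43 against pachytene (1.43 ± 0.34, limma adjusted p = 0.025) and Prss44 against meiosis II (1.84 ± 0.20, limma adjusted p = 0.0016). Of 4 RNA and translation genes all 4 kept it, and Eif2b5, the catalytic subunit gene of the exchange factor for eIF2, passed in both (0.88 ± 0.24 and 1.02 ± 0.24). Sbds, a ribosome maturation gene, had 231 and 201 FPKM in Cxxc1-null diplotene against 81.6 and 98.1 in meiosis II (1.26 ± 0.23, limma adjusted p = 0.0068).

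**Figure D5:**
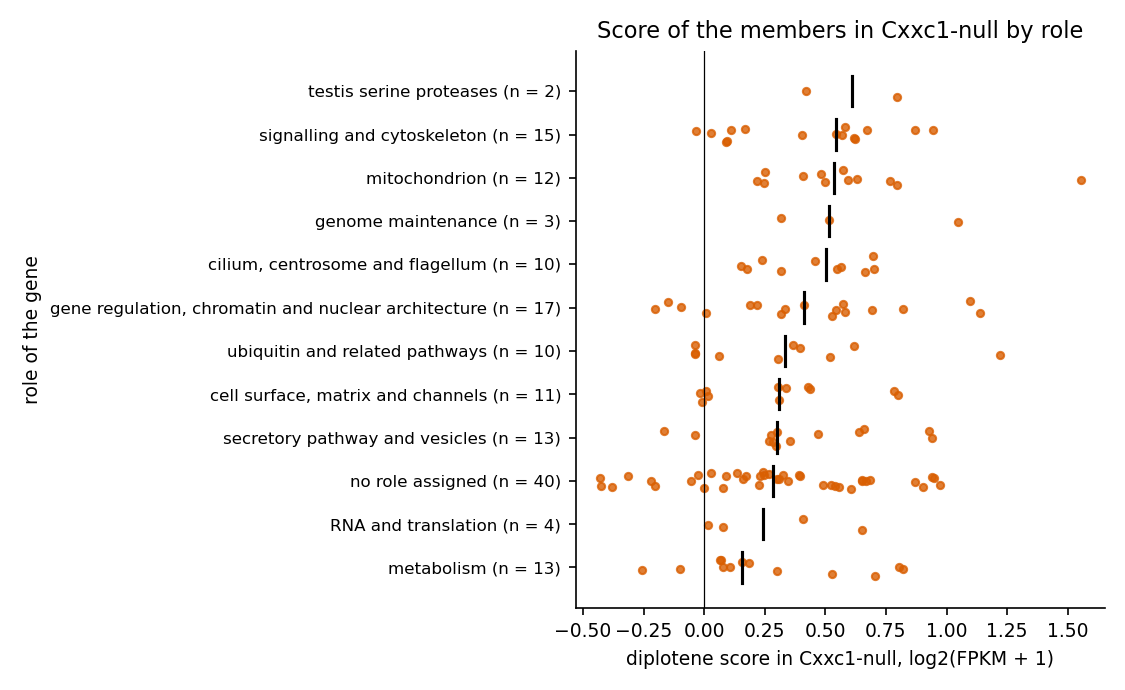
The diplotene score in Cxxc1-null (x axis, difference of log2(FPKM + 1)) of each of the 150 members by the role of the gene, with 1 point per gene and a line at each group's median. The score is above 0 for 128 of all 150 members, among them all 10 cilium, centrosome and flagellum genes and all 12 mitochondrial genes. The group medians run from 0.16 for metabolism to 0.61 for the 2 serine proteases, and the groups were not compared by a test.

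For 40 members no role was assigned, many of them under clone names or other older symbols. Some have since been named: RefSeq gives 9030418K01Rik as Fam217b, 1300014I06Rik as Pxdc1, D16H22S680E as Tango2 and Gm10345 as Smpd5, all protein-coding. Roles went by the deposited symbols, so genes under older names may be missing from the groups above. Of the 40, 31 kept both Cxxc1-null diplotene libraries on top, 24 passed against pachytene, 21 against meiosis II and 13 in both. Ccdc134 (1.35 ± 0.26 and 1.35 ± 0.26), 9030418K01Rik (1.52 ± 0.33 and 2.02 ± 0.33) and 1300014I06Rik (1.44 ± 0.34 and 1.33 ± 0.34) were among the 10 members with the largest smaller-of-both differences. The other 7 were Pou5f2, Cdh2, Rabep2, Lat2, Rnf166, Abcb8 and Numb. Ankrd54 and Gm10345, both among the 10 most abundant members, passed in both contrasts, with 578 and 542 and with 237 and 223 FPKM in Cxxc1-null diplotene. Of the top 30 by score, Iqcc passed in both (0.99 ± 0.27 and 2.61 ± 0.27), Klhl35 and BC107364 passed against pachytene, and D16H22S680E, AI467606 and the pseudogene Gm9731 passed against meiosis II. Dap, near the limit of the list, passed against pachytene (0.75 ± 0.20).

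For 22 members at least 1 other Cxxc1-null library reached the lower diplotene library, which gives a score of 0 or lower, down to -0.43. Such a score records an overlap of single libraries, and 18 of the 22 had positive limma estimates in both Cxxc1-null contrasts, 7 were called higher than pachytene and 3 higher than meiosis II. The 10 lowest scores were those of Srrd, Pisd-ps2, 9330159M07Rik, Dpp3, Gmppa, 9530002B09Rik, Hjurp, Phactr3, Vamp5 and Sfmbt2. Srrd had 31.7 and 28.4 FPKM in Cxxc1-null pachytene, 35.3 and 50.5 in diplotene and 23.3 and 47.9 in meiosis II, so its replicates spread over the stage difference. Dpp3, a dipeptidyl peptidase gene, had 31.3 and 22.7 FPKM in Cxxc1-null diplotene and 28.4 and 15.8 in meiosis II, and passed against pachytene (1.63 ± 0.35, limma adjusted p = 0.019). Phactr3, a regulator gene of protein phosphatase, was low, at 3.78 and 3.83 FPKM in Cxxc1-null diplotene and 3.19 to 4.50 in pachytene. The pseudogene Pisd-ps2 had 4.99 and 1.48 FPKM in Cxxc1-null diplotene.

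The WT diplotene values entered the rule, so the genotypes are set side by side as a description. The Cxxc1-null diplotene level had a median of 96.3% of the WT mean over the members, and 142 of 150 were between 50% and 200%. The range ran from 37.4% for Pik3r6 to 288% for 9530002B09Rik. Both Cxxc1-null diplotene libraries lay below both WT ones for 57 members and above them for 44, where the shares of eligible genes were 19.1% and 25.8%. In meiosis II both Cxxc1-null libraries lay below both WT ones for 65 members and above for 42, against 29.9% and 29.0% of eligible genes. In the fit over all 12 libraries 1 member was called higher and 1 lower in Cxxc1-null diplotene (0.702% and 0.0849% of all genes tested), 3 higher and 0 lower in pachytene (0.34% and 0.0154%), and 9 higher and 24 lower in meiosis II (6.14% and 4.35%). The WT libraries of these contrasts chose the members, so nothing is read from these counts. Among the members with lower meiosis II values were the ubiquitin and SUMO ligase gene Topors, with 39.4 and 28.3 FPKM in WT and 12.4 and 11.1 in Cxxc1-null, and the calcium/calmodulin kinase gene Camk2g, with 5.87 and 5.62 against 2.67 and 2.01. Lims2, a focal adhesion gene, had 9.62 and 7.88 FPKM in WT and 20.6 and 21.7 in Cxxc1-null meiosis II, and 19.1 and 14.3 against 32.9 and 38.6 in diplotene.

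Lists of germ-cell genes set out for comparison held 4 members in all. Besides Rsph1 and Spef1 these were Pou5f2, of 30 pachytene and diplotene spermatocyte markers, and Kat5, of 52 transcription and chromatin regulators. The rule took 150 of 5965 eligible genes, and 26 spermatocyte markers, 31 regulators and 35 meiotic division genes were eligible. Of all genes tested 12.3% were called higher and 17% lower than in pachytene. Against meiosis II the shares were 18.9% and 25.1%, and 1.91% were higher than both. No list was tested against these shares. Of 29 tested spermatocyte markers 3 were higher and 7 lower in Cxxc1-null diplotene than in pachytene, 11 were higher and 2 lower than in meiosis II, and 1, Pou5f2, was higher than both. Of 45 tested regulators 7 were higher and 4 lower than in pachytene, 6 higher and 16 lower than in meiosis II, and 1 higher than both. Genes of the meiotic divisions gave 0 members and 0 of 38 tested genes above both neighbours, with 7 higher and 5 lower than in pachytene and 11 higher and 7 lower than in meiosis II. Round spermatid markers gave 4 higher and 1 lower of 39 than in pachytene and 0 higher and 32 lower than in meiosis II, and acrosome and fertilization genes 7 and 2, then 3 and 20, of 34. RNA-binding and translation genes gave 5 higher and 13 lower of 51 than in pachytene and 17 and 8 against meiosis II, and ubiquitin pathway genes 6 and 8, then 8 and 18, of 52, with 1 above both. Spermatogonial and early prophase genes were lower in diplotene than in pachytene for 12 of 18. Genes of the X and Y chromosomes, listed as silent in pachytene, were lower in diplotene than in pachytene for 8 of 21 and lower than in meiosis II for 19. Of 19 tested stress response genes 3 were higher than in pachytene and 2 higher and 11 lower than in meiosis II. Sertoli markers were lower than in pachytene for 8 of 15 and lower than in meiosis II for 14, Leydig markers for 2 and 5 of 7, and the peritubular, endothelial and blood markers for 1 and 2 of 6.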

How the data were processed

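RNA was measured in 12 libraries of 500 sorted cells, 2 per group, and samples were grouped by their titles. The authors deposited 1 table of FPKM values per gene and library; per the submitters' processing notes, TopHat2 2.1.1, Cufflinks 2.2.1 and build mm9 were used, with no roles given. Fragment totals per library are not among the sources, so depth is unknown. The 8 H3K4me3 ChIP libraries were not analysed here. Values were taken as log2(FPKM + 1), which understates changes of low genes, and the tests covered the 12956 genes that reached 1 FPKM in 2 or more libraries. The 6 Cxxc1-null libraries were fitted with 1 mean per stage in limma 3.58.1 (R 4.3.3), with trended, moderated variances and 3 residual degrees of freedom, Benjamini-Hochberg adjustment and a threshold of 0.05. This fit holds no WT library, since WT values chose the members. Genotype contrasts used all 12 libraries. The script was tested on simulated data.

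Members and lists were chosen with earlier results of these data known. Named are the 30 highest scores, the 10 most abundant members in WT diplotene, the 10 largest of the smaller differences among members called in both Cxxc1-null contrasts, the 10 lowest Cxxc1-null scores, list members, the 5 genes on either side of the limit, and members by role. Symbols were matched to RefSeq (GRCm38.p6, a different build) for all 150 members, and promoter sequences are RefSeq's. Alternatives were the pseudocount, filter, quantile normalization, a replicate block, all libraries, each library left out, the rule's settings and the promoter window.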

Additional observations from a re-analysis of the deposited data

Results flagged for a closer look

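For 2 members every Cxxc1-null diplotene library lay below every Cxxc1-null pachytene library, while every WT diplotene library lay above every WT pachytene library. The difference between the genotypes was not tested, since the WT values chose the genes. The share of all or eligible genes with such an order in Cxxc1-null was not counted, so no excess is read from these 2. 9530002B09Rik had 38.8 and 35.2 FPKM in Cxxc1-null pachytene and 33.2 and 34.0 in diplotene (diplotene minus pachytene -0.14 on the log2 scale, limma adjusted p = 0.63), against 6.44 and 4.27, then 12.0 and 11.3 FPKM in WT. 9330159M07Rik had 21.2 and 18.5 FPKM in Cxxc1-null pachytene and 18.3 and 16.1 in diplotene (-0.20, limma adjusted p = 0.58), against 13.7 and 11.6, then 18.3 and 18.1 in WT. Neither Cxxc1-null difference passed the test.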

How the results depend on the processing

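Leaving out 1 Cxxc1-null library at a time gave 0 to 83 calls against pachytene (93 with all), 43 to 83 against meiosis II (84) and 0 to 42 in both (55). For members with every remaining Cxxc1-null diplotene library on top it gave 130 to 140 (128), a count that leaving out a library can only hold or raise, so it says nothing of stability. With no filter on low values 40 members were called against pachytene, 71 against meiosis II and 25 in both. Over the remaining alternatives (all 12 libraries, pseudocount of 0.1, a 5 FPKM filter, quantile normalization) the counts stayed at 91 to 101, 82 to 98 and 51 to 66. With the replicate number as a block the counts were 111 against pachytene, 108 against meiosis II and 82 in both. The labels do not say that a number marks a shared animal or day, and same-numbered Cxxc1-null libraries deviated together with correlations of 0.116 to 0.42. With the 150 genes taken when WT pachytene replicate 2 is left aside, chosen after seeing the data, the counts were 74, 123 and 61. Leaving out 1 WT library at a time, the rule kept 55 to 130 of the 150 members. For Cxxc1-null against WT, leaving out 1 library gave 0 to 4 members in pachytene (3 with all), 0 to 2 in diplotene (2) and 6 to 38 in meiosis II (33). With no filter these were 1 in pachytene and 0 in diplotene, and diplotene had 1 with a 5 FPKM filter and 1 under quantile normalization. Of the named genes' values against pachytene, 536 stayed on their side of the threshold over the alternatives, 133 lost and 15 gained a call, and against meiosis II 606, 54 and 24; none called turned its direction. In the 250 base window the ETS-type motif was in 12.0% of member, 17.5% of eligible and 6.91% of all promoters, each lower than in the longer window. The shorter window lies inside the longer one, so the share of any motif can only hold or fall there. The cause of the other moves was not tested. The depth of the libraries is unknown, so counting error at low FPKM cannot be given.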
